A study of Mus musculus with 7 samples.

Results

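The enzymes that place and remove methyl groups on DNA were examined as a set of 7 genes: the methyltransferases Dnmt1, Dnmt3a and Dnmt3b, the Dnmt1 partner Uhrf1, and the dioxygenases Tet1, Tet2 and Tet3. They were chosen by name. Each matched 1 row of a table of 24341 mouse genes, and all 7 were among the 10541 genes that passed the filter on low values and were tested. Gene expression had been measured by RNA-seq as FPKM (fragments per kilobase of transcript, scaled to sequencing depth), a unit already divided by transcript length, so that levels of different genes can be set side by side within a sample.

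The samples were B-cell precursors (BCP) sorted by FACS from the spleens of Eμ-Ret mice. These animals are hemizygous for a transgene in which the immunoglobulin heavy-chain enhancer drives a Ret fusion oncogene in B-lineage cells, on a BALB/c background, and this genotype was shared by all 7 samples. For the preleukemic group there were 4 samples, taken from healthy young mice. The leukemic group held 3 samples, from older mice that were moribund with overt disease, so that age and disease state cannot be told apart. No transgene-negative sample was analysed here, and the labels give no age in days or weeks.

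DNMT1 copies the methylation of the parental strand onto newly made DNA during replication, and UHRF1 binds hemimethylated CpG sites and brings DNMT1 to them. DNMT3A and DNMT3B add methyl groups to sites without any, and both act in early B-cell development. The 3 TET enzymes oxidize 5-methylcytosine, the first step of its removal, with iron, oxygen and 2-oxoglutarate as cofactors.

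None of the 7 genes differed between leukemic and preleukemic BCP cells at an adjusted p under 0.05 with limma, against 1553 of the 10541 genes tested (14.7%), of which 893 had the higher mean (8.47%) and 660 the lower mean (6.26%) in the leukemic group. The split turned to 754 and 907 with quantile normalization and to 686 and 2231 when each sample was rescaled to the same total, which moved the median over all tested genes from -0.02 to -0.18 (log2 scale), and without preleukemic replicate 4 the number of calls was 106. At an unadjusted p under 0.05 there were 3, Dnmt3a, Tet1 and Tet3, each with a lower mean in the leukemic samples. That threshold was also met by 3586 of the 10541 genes tested. The log2 fold change (leukemic minus preleukemic, on the log2(FPKM + 1) scale) was above 0 for Dnmt1, Uhrf1 and Dnmt3b and below 0 for Dnmt3a, Tet1, Tet2 and Tet3. The median over the 7 genes was -0.12, beside -0.02 over all genes tested. The leukemic and preleukemic values did not overlap for 2 of the 7, Uhrf1 and Dnmt3a, where 32% of all genes tested had groups that did not overlap. With 3 and 4 samples the intervals of these differences were wide, and a p above the threshold does not show that the groups were alike.

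**Figure D1:**
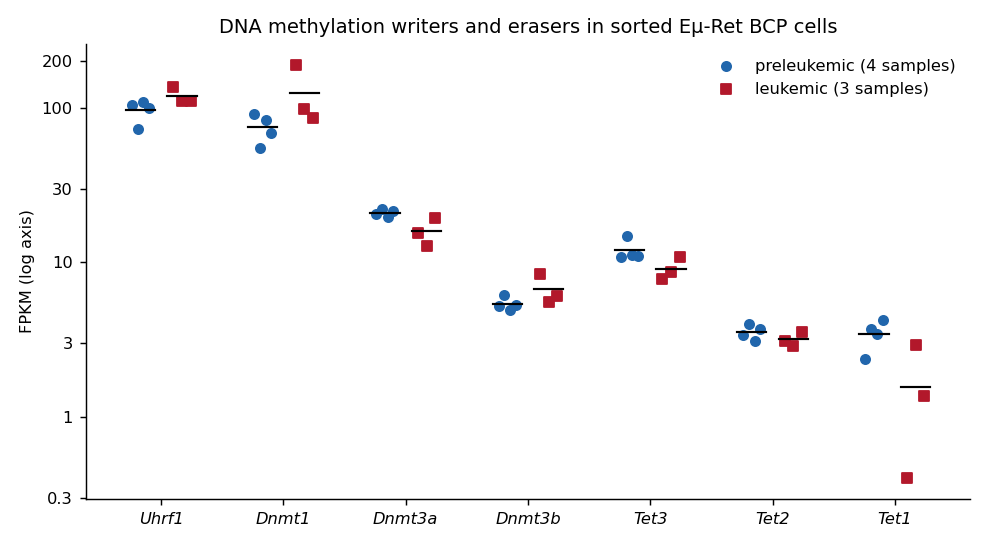
FPKM (log axis) of the 7 genes in each preleukemic (blue circles, n = 4) and leukemic (red squares, n = 3) sample, with black bars at the group means. Dnmt1 reached 190 FPKM and Tet1 0.401 FPKM in the same leukemic sample, replicate 1, while the Dnmt3a values of the groups nearly touched, at 19.47 and 19.49 FPKM, without overlapping.

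Markers of other cells moved with the leukemic group. All 18 red cell genes tested rose in the leukemic samples, as did 8 of 12 macrophage genes and 5 of 11 neutrophil genes, beside 8.47% of all genes tested. None of 9 T and NK cell genes passed the test. The summed red cell level was 5808 to 26766 FPKM in the leukemic samples, 2828 FPKM in preleukemic replicate 1 and 382 to 399 FPKM in the other 3 preleukemic samples. The summed macrophage level was 166 to 391 FPKM against 37.8 to 90.9 FPKM, and the summed neutrophil level 1425 to 1764 FPKM against 150 to 870 FPKM. Of the red cell list, 1 gene, Hbb-bs, stood at the lowest value in all samples. Of 15 BCP genes, 4 fell (Pax5, Ebf1, Vpreb1 and Igll1), beside 6.26% of all genes tested, and none rose. Of the 15 fold changes, 14 were below 0, with a median of -0.61, and for 10 genes every leukemic value was below every preleukemic one. Over all genes tested that was so for 17.1%. Enpep, which encodes the BP-1 antigen used to harvest the cells, was at 19.1, 102 and 77.2 FPKM in leukemic replicates 1 to 3 and at 134 to 210 FPKM in the preleukemic samples. Among the leukemic samples the red cell sum was lowest, at 5808 FPKM, in replicate 1, the sample with the highest Dnmt1 and the lowest Tet1 level. Its macrophage sum was also the lowest of the leukemic samples, at 166 FPKM, but its neutrophil sum, 1539 FPKM, was not. The mean of the BCP genes, each centered on its mean over the 7 samples (log2 scale), was -0.85 in leukemic replicate 1 and -0.24 and -0.23 in replicates 2 and 3. The part of transcripts from other cells in the results below was not tested. In bulk RNA, fewer cells of a type and less RNA per cell cannot be told apart.

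Dnmt1, the maintenance methyltransferase (mm10 chr9:20907206-20959888), was at 91.4, 54.8, 83.8 and 68.7 FPKM in preleukemic replicates 1 to 4 and at 190, 98.0 and 85.4 FPKM in leukemic replicates 1 to 3. Leukemic replicate 1 stood far above the other 6 samples, and leukemic replicate 3 lay below preleukemic replicate 1, so that the groups overlapped. The means were 124 ± 56.9 FPKM (SD, n = 3) and 74.7 ± 16.3 FPKM (SD, n = 4), and the log2 fold change was 0.66 (SE 0.30, 95% interval -0.03 to 1.35, adjusted p = 0.160). Without leukemic replicate 1 it was 0.32 (adjusted p = 0.335).

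Uhrf1, the reader of hemimethylated DNA (chr17:56303337-56323486), was at 105, 72.8, 108 and 99.9 FPKM in the preleukemic samples and at 136, 111 and 111 FPKM in the leukemic ones. Every leukemic sample was above every preleukemic sample, although by only a few FPKM for 2 of the 3. The means were 119 ± 14.5 and 96.4 ± 16.1 FPKM, and the log2 fold change was 0.32 (SE 0.15, 95% interval -0.05 to 0.68, adjusted p = 0.193). It was 0.19 without preleukemic replicate 2 and 0.15 after rescaling each sample to the same total. The lowest Uhrf1 and the lowest Dnmt1 value were both in preleukemic replicate 2, and the highest of both in leukemic replicate 1.

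The promoters of these genes are shown because Dnmt1 and Uhrf1 were the members whose windows held a letter pattern of the E2F family, which regulates genes of the G1 to S transition. RefSeq windows (GRCm38.p6) of 250 bases before to 50 after each start were searched on both strands for TTTGGCGC and TTTCGCGC. All 7 genes had a window, 12 windows in all, and 2 genes held a match. A match was held by 251 of all 27025 genes with a RefSeq window (0.929%) and by 158 of the 8128 tested genes with a window (1.94%). Dnmt1 had 2 matches in 1 of its 3 windows, at -219 and at 34 from the start, and Uhrf1 had 1 match in 1 of its 2 windows, at -185. Of the 250 bases before the start in that Dnmt1 window, 166 overlap annotated exons. Of 12 S phase genes with a window, 5 held a match (Mcm3, Mcm5, Mcm6, Mcm7 and Cdt1), and of 9 mitosis genes 1 did (Cdk1). The stretches around the matches are given below 5′ to 3′ on the gene's strand, with the matched letters in capitals. The first Dnmt1 stretch and none of the others here carries the pattern on the opposite strand.
Dnmt1, chr9:20952824-20952853, minus strand: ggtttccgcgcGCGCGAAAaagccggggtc
Dnmt1, chr9:20952574-20952601, minus strand: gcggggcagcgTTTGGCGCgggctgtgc
Uhrf1, chr17:56304117-56304146, plus strand: cccgagtcgggTTTCGCGCgcccaggcgtc
Mcm7, chr5:138171849-138171878, minus strand: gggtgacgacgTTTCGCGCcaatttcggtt
Cdt1, chr8:122568036-122568064, plus strand: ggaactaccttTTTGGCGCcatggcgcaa

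The whole 250 bases before the downstream Uhrf1 start (chr17:56304063-56304312, plus strand), which overlap no annotated exon, show how rich in CpG this window is, with 33 CpG sites in its 300 bases against a median of 7 over all windows, and the match again in capitals.
Uhrf1, 250 bases before the start: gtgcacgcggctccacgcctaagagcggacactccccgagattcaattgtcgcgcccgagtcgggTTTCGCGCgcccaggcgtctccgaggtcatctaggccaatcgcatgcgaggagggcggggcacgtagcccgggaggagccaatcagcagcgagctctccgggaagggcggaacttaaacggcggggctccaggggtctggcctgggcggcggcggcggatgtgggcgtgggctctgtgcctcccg
No match was found in the windows of Dnmt3a, Dnmt3b, Tet1, Tet2 or Tet3, which says only that these letters are not there.

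Genes of DNA replication were set beside Dnmt1. Of 16 S phase genes tested, 3 rose in the leukemic samples, namely Cdc6, which loads the replicative helicase, its partner Cdt1, and the transcription factor E2f1, beside 8.47% of all genes tested. All 16 fold changes were above 0, with a median of 0.51. Cdt1 was at 62.6, 42.5 and 35.2 FPKM in the leukemic samples and 17.9 to 32.2 FPKM in the preleukemic ones (log2 fold change 0.95, SE 0.24, adjusted p = 0.0412). Of 11 mitosis genes, 1 rose, the proliferation marker Mki67 (0.74, SE 0.17, adjusted p = 0.0316), a share near the 8.47% of all genes, and all 11 fold changes were above 0, with a median of 0.57. None of the 27 passed it when leukemic replicate 1 or 2 or preleukemic replicate 2, 3 or 4 was left out.

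The level of each gene was also centered on its own mean over the 7 samples (log2 scale). Centered Dnmt1 was 1.08, 0.13 and -0.07 in leukemic replicates 1 to 3, and the mean of the 16 S phase genes was 0.69, 0.24 and 0.06. In preleukemic replicates 1 to 4 the Dnmt1 values were 0.03, -0.70, -0.09 and -0.38, and the S phase means 0.15, -0.69, -0.14 and -0.32. The mean of the 11 mitosis genes was 0.81, 0.29 and -0.21 in the leukemic and 0.05, -0.69, -0.04 and -0.22 in the preleukemic samples. Leukemic replicate 1 was highest and preleukemic replicate 2 lowest for Dnmt1 and for both lists. Dnmt1 minus the S phase mean differed by 0.08 between the groups, with overlapping values, where Dnmt1 alone differed by 0.66 and the mitosis mean by 0.52. That small difference averages unlike samples. Dnmt1 minus the S phase mean was 0.38, -0.11 and -0.13 in leukemic replicates 1 to 3 and -0.12 to 0.04 in the preleukemic samples. For Uhrf1 minus the S phase mean the difference was -0.27, also with overlap. The 7 samples share their libraries and depth across genes, and these profiles are descriptions.

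**Figure D2:**
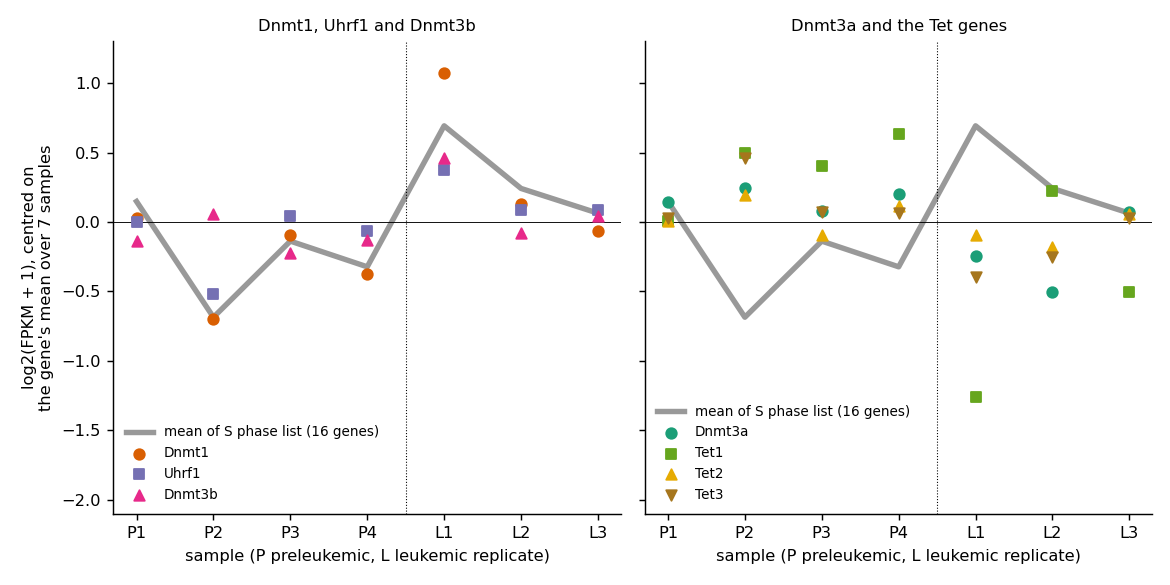
Centered log2(FPKM + 1) of each gene in the 4 preleukemic (P1 to P4) and 3 leukemic (L1 to L3) samples; points are genes and the grey line is the mean of 16 S phase genes. Dnmt1 and the S phase mean were both highest in L1 (1.08 and 0.69) and lowest in P2 (-0.70 and -0.69), whereas Tet1 was lowest in L1 (-1.26).

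The genes with profiles nearest to Dnmt1 over the 7 samples were Fignl1, which acts in homologous recombination, and Tipin, which protects replication forks. Their root mean square differences from Dnmt1 were 0.063 and 0.085 on the log2 scale, where the median over 8776 genes was 0.55. Fignl1 was at 56.6, 28.2 and 24.6 FPKM in the leukemic samples and 14.9 to 29.5 FPKM in the preleukemic samples. Such genes were picked for their likeness over these samples, so that a high or low sample they share with a member is no added result. The gene nearest to Uhrf1 was Nelfcd, at 0.070.

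Dnmt3a, a de novo methyltransferase (chr12:3806980-3914443), was at 20.5, 22.1, 19.5 and 21.4 FPKM in the preleukemic samples, a spread of 5.36% of the mean (SD). It was at 15.4, 12.7 and 19.5 FPKM in the leukemic samples, and the highest of these, 19.47 FPKM, was just under the lowest preleukemic value, 19.49 FPKM. The means were 15.9 ± 3.39 and 20.9 ± 1.12 FPKM, and the log2 fold change was -0.39 (SE 0.14, 95% interval -0.71 to -0.07, adjusted p = 0.0932 with limma). This was the smallest adjusted p of the 7 genes. It passed the threshold without leukemic replicate 3 (-0.54, adjusted p = 0.0330) and when each sample's FPKM were rescaled to the same total (-0.56, adjusted p = 0.0368), and it was -0.25 without leukemic replicate 2 (adjusted p = 0.181). Relative to the median of all genes the rescaled Dnmt3a value was -0.39, beside -0.37 without the scaling.

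Dnmt3b, the other de novo enzyme (chr2:153649449-153687730), was at 5.25, 6.17, 4.90 and 5.29 FPKM in the preleukemic samples and 8.45, 5.50 and 6.07 FPKM in the leukemic ones. Leukemic replicate 1 was the highest, and the others lay within or near the preleukemic range (log2 fold change 0.25, SE 0.15, 95% interval -0.11 to 0.60, adjusted p = 0.286). The value was 0.09 without leukemic replicate 1 and 0.11 after rescaling to the same total. The ratio of Dnmt3a to Dnmt3b within a sample, which no scaling of a sample can change, was 3.90, 3.58, 3.98 and 4.04 in the preleukemic samples and 1.82, 2.31 and 3.21 in the leukemic samples. All 3 leukemic ratios were below all 4 preleukemic ones, where 32% of all single genes tested had groups that did not overlap. Dnmt3l, which encodes a catalytically inactive cofactor of these enzymes, had a mean of 0.0186 FPKM and was not tested.

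The nearest profiles to Dnmt3a were those of the kinase gene Dyrk2 and of Rai1, at root mean square differences of 0.040 and 0.055, and to Dnmt3b those of Cpped1 and Ddhd2, at 0.052 and 0.056. Dyrk2 was at 38.7, 31.6 and 47.1 FPKM in the leukemic samples and 45.9 to 55.1 FPKM in the preleukemic samples.

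Tet1 (chr10:62804570-62880014) had the fold change farthest from 0 among the 7 genes. It was at 2.37, 3.73, 3.43 and 4.21 FPKM in the preleukemic samples and at 0.401, 2.92 and 1.37 FPKM in the leukemic samples. Leukemic replicate 1 was the lowest sample and leukemic replicate 2 lay within the preleukemic range. The means were 1.56 ± 1.27 and 3.43 ± 0.781 FPKM, and the log2 fold change was -0.90 (SE 0.35, 95% interval -1.71 to -0.08, adjusted p = 0.118 with limma). Without leukemic replicate 2 it was -1.27 (adjusted p = 0.0362), and without leukemic replicate 1 it was -0.52 (adjusted p = 0.233). With a pseudocount of 0.1 the Tet1 value was -1.41, and after rescaling -1.25. The low value of 0.401 FPKM corresponded to about 87 fragments, so that counting error alone was about 10.7%.

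Tet2 (chr3:133463677-133544390) varied least: it was at 3.38, 3.99, 3.09 and 3.73 FPKM in the preleukemic samples and 3.09, 2.87 and 3.55 FPKM in the leukemic samples, with overlapping groups (log2 fold change -0.12, SE 0.13, 95% interval -0.44 to 0.19, adjusted p = 0.534, and -0.29 after rescaling). Tet3 (chr6:83362374-83441678) was at 10.7, 14.8, 11.1 and 11.0 FPKM and at 7.78, 8.67 and 10.7 FPKM. Preleukemic replicate 2 stood above the other samples for Tet3, and the highest leukemic value met the lowest preleukemic one. The Tet3 log2 fold change was -0.36 (SE 0.15, 95% interval -0.71 to -0.02, adjusted p = 0.133 with limma).

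The sum of the 3 Tet genes was 16.5, 22.6, 17.6 and 18.98 FPKM in the preleukemic samples and 11.3, 14.5 and 15.7 FPKM in the leukemic samples, without overlap. Each of the 3 genes alone overlapped between the groups, and 32% of all single genes tested had groups that did not overlap. Tet3 made up 58.2% to 69.0% of the Tet sum in every sample. The sum of the 3 methyltransferases overlapped between the groups, at 83.0 to 117 FPKM in the preleukemic and 111 to 214 FPKM in the leukemic samples. Dnmt1 made up 65.99% to 78.0% of it in the preleukemic samples and 77.0% to 88.8% in the leukemic ones.

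The genes with profiles nearest to Tet1 were Map7 and Tifa, at root mean square differences of 0.13 each. Tifa was at 85.7, 235 and 136 FPKM in the leukemic samples and 250 to 374 FPKM in the preleukemic samples. Tet2 was nearest to Ankrd10 and Sbf1, and Tet3 to Zbtb48 and Prpf39. Zbtb48 was at 5.60, 5.79 and 7.47 FPKM in the leukemic samples and 7.30 to 10.2 FPKM in the preleukemic samples.

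The order of the levels within a sample was nearly fixed. In the preleukemic samples it ran Uhrf1, Dnmt1, Dnmt3a, Tet3, Dnmt3b, with Tet2 and Tet1 last. Uhrf1 was above Dnmt1 in 4 of 4 preleukemic samples, and the ratio of their means was 1.29. Tet2 and Tet1 could not be ordered, since Tet2 was the higher in 2 of 4 samples. In the leukemic samples Dnmt1 was above Uhrf1 in 1 of 3, replicate 1, where the ratio of Uhrf1 to Dnmt1 was 0.717, against 1.13 to 1.45 in the other 6 samples. Tet3 was above Dnmt3b in 2 of 3 leukemic samples, and Tet2 was above Tet1 in 2 of 3.

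The 7 genes lie on 7 chromosomes, and the study is about gains of whole chromosomes, so each was set beside its chromosome (genes with a mean of at least 5 FPKM). The labels give no karyotype for these samples. Preleukemic samples karyotyped in the study also held gains, among them of chromosomes 9 and 17, so that the preleukemic group is no known diploid baseline. The chromosomes of Uhrf1 and Dnmt1 had the highest medians of all. On chromosome 17 the median log2 fold change over 494 genes was 0.35, and 179 genes rose and 2 fell. Uhrf1, at 0.32, was 0.04 below that median, and 46.0% of the genes of chromosome 17 had a lower fold change. On chromosome 9 the median over 495 genes was 0.23, with 62 genes that rose and 6 that fell. Dnmt1, at 0.66, was 0.44 above it, and 90.7% of the genes had a lower fold change.

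The median deviation of chromosome 17 genes from the preleukemic mean was alike in the 3 leukemic samples, at 0.37, 0.35 and 0.38. That of chromosome 9 genes was 0.33, 0.26 and 0.07 in leukemic replicates 1 to 3. Dnmt1 (190, 98.0 and 85.4 FPKM) and the S phase mean (0.69, 0.24 and 0.06) stood in the same order, and a link between them was not tested. The chromosomes of the other 5 genes had medians between -0.08 and -0.04, beside -0.02 over all 8777 genes, so that Tet1 was 0.85 below, Dnmt3a 0.31 below, Tet3 0.30 below and Dnmt3b 0.31 above the genes around them.

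**Figure D3:**
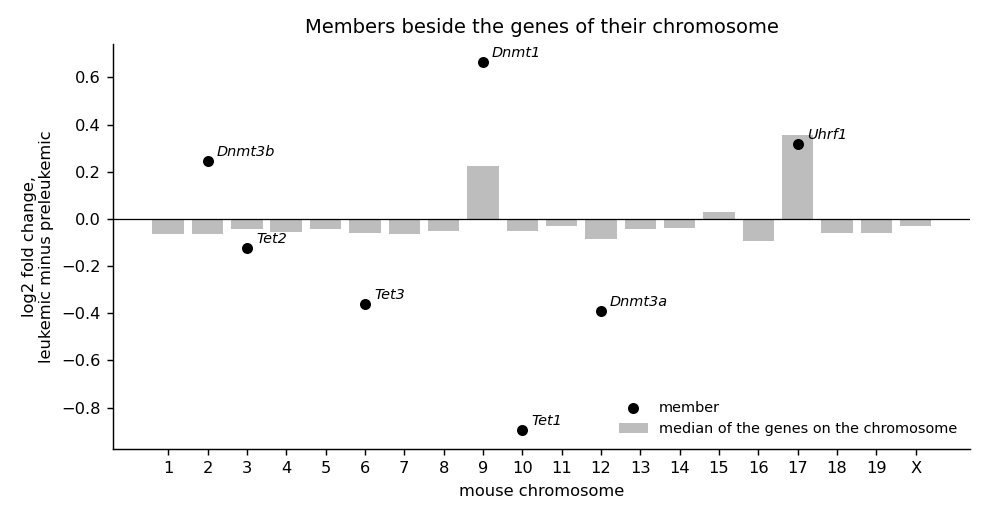
Log2 fold change (leukemic minus preleukemic) of each of the 7 genes (black points) beside the median of the genes on each mouse chromosome (grey bars). Uhrf1 (0.32) lies at the chromosome 17 median (0.35), Dnmt1 (0.66) above that of chromosome 9 (0.23), and Tet1 (-0.90) far below that of chromosome 10 (-0.05).

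The other genes of the pathway were taken in 8 lists, 6 of partners and cofactors and 2 of genes that methylation silences. Of 74 genes tested, 8 passed the test (10.8%, beside 14.7% of all genes), 7 lower and 1 higher in the leukemic samples, and the median was 0.04. These calls depended on the samples included: in 7 fits that each dropped 1 sample, Nsd1 passed in 5 fits, Mbd4 and Slc23a2 in 4, Mthfd1 in 2, Cxxc5 and Zbtb4 in 1, and Zbtb24 in 0. The partners of maintenance methylation included the sliding clamp Pcna (adjusted p = 0.271) and its associated factor 2810417H13Rik (adjusted p = 0.279). Pcna was at 457, 372 and 323 FPKM in the leukemic and 232 to 384 FPKM in the preleukemic samples, and 2810417H13Rik at 224, 117 and 81.2 FPKM against 54.0 to 111 FPKM. Both were highest in leukemic replicate 1 and lowest in preleukemic replicate 2, as Dnmt1 was. Of the 10 partners tested, 8 had a fold change above 0, and 1 passed the test: Zbtb24, a zinc finger gene needed for methylation of pericentromeric repeats, fell by 0.38 on the log2 scale (SE 0.10, adjusted p = 0.0433), from 13.4 to 16.3 FPKM in the preleukemic samples to 10.2 to 11.8 FPKM in the leukemic samples.

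Among 11 genes tested whose products write histone marks that guide methylation or act with such marks, 1 fell, a share near the 6.26% of all genes tested. Nsd1, which places the H3K36 dimethyl mark that DNMT3A binds, was at 22.5, 25.8, 24.8 and 26.8 FPKM in the preleukemic samples and 11.3, 15.3 and 16.3 FPKM in the leukemic samples. The groups were well apart, with a log2 fold change of -0.78 (SE 0.13, adjusted p = 0.0165). Setd2, which places the trimethyl mark of the same residue, had a fold change of 0.04 (adjusted p = 0.839). Trim28 and Cbx1, the most abundant of the list, were at 148 to 203 and 79.0 to 110 FPKM over all samples and did not pass the test (adjusted p = 0.291 and 0.950).

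The next list held 7 genes, readers of methylated DNA and their relatives, not all of which need bind it. Its zinc finger gene Zbtb4 went from 4.30 to 5.97 FPKM in the preleukemic samples to 2.13 to 3.24 FPKM in the leukemic samples (log2 fold change -0.76, SE 0.17, adjusted p = 0.0292). The most abundant genes of this list, Mbd3 and Mbd2, were at 84.9 to 97.3 and 68.6 to 96.4 FPKM over all samples and did not pass the test.

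Of 12 genes of base removal and repair, 1 fell, a share near the 6.26% of all genes tested. Mbd4, a glycosylase that removes thymine mispaired at methylated CpG sites, was at 18.1 to 22.3 FPKM in the preleukemic and 13.1 to 14.7 FPKM in the leukemic samples (log2 fold change -0.50, SE 0.10, adjusted p = 0.0226). Tdg, which excises the oxidized bases made by TET enzymes, had a fold change of 0.00 (adjusted p = 0.988). The abundant genes were Apex1, at 155 to 288 FPKM in the leukemic and 108 to 163 FPKM in the preleukemic samples, and Parp1 (adjusted p = 0.104 and 0.622).

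Of 13 genes tested that bear on TET activity, 2 fell, beside 6.26% of all genes tested. Slc23a2, a transporter of ascorbate, which aids TET catalysis, was at 9.30 to 11.3 FPKM in the preleukemic and 5.98 to 7.39 FPKM in the leukemic samples (log2 fold change -0.51, SE 0.11, adjusted p = 0.0259). Cxxc5, a CXXC zinc finger gene, was at 72.0 to 94.8 and 49.3 to 62.6 FPKM (-0.50, SE 0.13, adjusted p = 0.0438). The most abundant genes of that list, Sdhb and Idh3g of the citric acid cycle, did not pass the test (adjusted p = 0.529 and 0.0995).

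Of 13 genes of the methyl donor cycle, 1 rose, a share near the 8.47% of all genes tested. Mthfd1, an enzyme of folate metabolism, was at 53.0, 52.2 and 44.0 FPKM in the leukemic samples and 25.4 to 36.3 FPKM in the preleukemic samples (log2 fold change 0.67, SE 0.15, adjusted p = 0.0274). Mat2a, which makes the methyl donor S-adenosylmethionine, was at 94.7 to 97.3 and 85.3 to 120 FPKM (0.01, adjusted p = 0.958). Shmt2, a mitochondrial enzyme that supplies one-carbon units from serine, was at 82.8 to 110 and 57.6 to 86.3 FPKM (adjusted p = 0.0978).

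**Figure D4:**
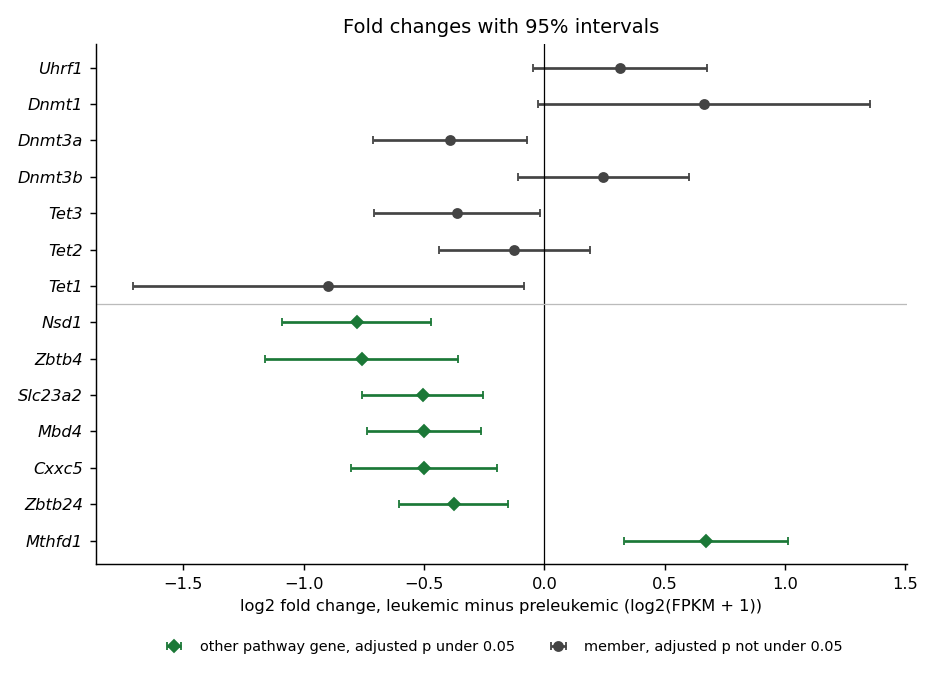
Log2 fold change (leukemic minus preleukemic, log2(FPKM + 1)) with 95% intervals for the 7 genes (grey circles, none with an adjusted p under 0.05) and the 7 other pathway genes with the largest changes among those that passed the test (green diamonds). These 7 were chosen for passing, 6 of them lie below 0, and Tet1 has the widest interval (-1.71 to -0.08).

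The final lists held genes whose expression is commonly held down or set to 1 allele by DNA methylation. All 14 germline genes listed stayed below 1 FPKM in every sample, and 6 of them stood at 0.01 FPKM, the lowest value of the table, in all 7 samples. None of these germline genes could be tested. The highest was Brdt, a testis bromodomain gene, at 0.451 to 0.806 FPKM in the preleukemic samples and 0.0145, 0.501 and 0.439 FPKM in the leukemic samples.

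Of 19 imprinted genes, 8 passed the filter and none passed the test with limma (2 had an unadjusted p under 0.05, Igf2 and Mcts2). Mcts2 was at 2.70, 10.3 and 3.81 FPKM in leukemic replicates 1 to 3 and 11.2 to 13.4 FPKM in the preleukemic samples (log2 fold change -1.20, adjusted p = 0.0589 with limma). Gnas, the most abundant, was at 568 to 728 FPKM in the preleukemic and 603 to 837 FPKM in the leukemic samples (adjusted p = 0.833). H19, a noncoding RNA made from the maternal allele, was at 236, 2.16 and 301 FPKM in leukemic replicates 1 to 3 and 4.71 to 55.3 FPKM in the preleukemic samples. H19 was therefore high in leukemic replicates 1 and 3 and below every preleukemic sample in leukemic replicate 2 (log2 fold change 1.56, SE 1.64, adjusted p = 0.522). Igf2, the paternally expressed growth factor gene beside H19, was singled out after its values were seen. It was at 485, 0.186 and 47.8 FPKM in leukemic replicates 1 to 3 and at most 0.124 FPKM in the preleukemic samples. Leukemic replicates 1 and 3 were the high samples, and Igf2 passed the filter on low values through these alone.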

How the data were processed

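RNA-seq (stranded mRNA library kit) was performed by the authors on sorted splenic BCP cells. The submitters' processing notes name STAR 2.5.0b, Cufflinks 2.2.1, bedtools 2.17.0, Bowtie, DESeq2 and mm10, without the role of each tool. The authors deposited 1 FPKM value per gene and sample, with no value below 0.01. Raw counts were not analysed here, so that no count model was used. Groups and replicate numbers were taken from the sample titles. From the steps of low values in 2243 genes, about 13600000 to 16000000 fragments per sample were inferred.

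A gene was tested when its FPKM over the 7 samples added up to 10 or more (10541 of 24341). Values entered as log2(FPKM + 1) in limma 3.58.1 (R 4.3.3, moderated test with an intensity trend, two-sided, Benjamini-Hochberg adjustment over all genes tested, threshold 0.05). The fit was tested on simulated data. Each sample is labelled as a separate replicate, and p-values measure the spread between these samples. The 7 genes and all lists were chosen with earlier results of these data known. Named pathway genes were, for each list, the 2 with the highest mean and up to 2 with the largest change among those that passed the test (called genes for the S phase, mitosis and BCP lists). Dnmt3l, Setd2, Tdg, Enpep, Hbb-bs, Igf2 and Mcts2 were named outside this rule, after their values were seen. Of the genes the rules select, 2 are not reported here. Profile neighbors were the 2 genes (mean of at least 5 FPKM) with the smallest root mean square difference from each member. Loci are those of the table, written 1-based. Promoter sequences are from RefSeq. Alternatives were a pseudocount of 0.1, no filter or an FPKM sum of 70, 2 rescalings, quantile normalization, no intensity trend, a test against a 1.5-fold change, the replicate block and leaving out each sample.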

Additional observations from a re-analysis of the deposited data

Results flagged for a closer look

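Among the 7 genes and the named pathway genes, 31 in all, 2 had 1 preleukemic sample far from the other 3. Tet3 in preleukemic replicate 2 was at 14.8 FPKM, with the other preleukemic samples between 10.7 and 11.1 FPKM; chance flags about 1 in 20 such groups. Ddx4, a germline gene, was at 0.0264 FPKM in preleukemic replicate 1 and at the lowest value of the table, 0.01 FPKM, in the other 3, so that any value above it in 1 sample would have stood apart.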

How the results depend on the processing

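The 7 genes kept the direction of their fold change in each of the 16 alternatives in which they could be tested (a sum of at least 70 FPKM left out Dnmt3b, Tet1 and Tet2). Several of these could not have altered a direction. No filter, the stricter filter, no intensity trend and the test against a 1.5-fold change leave each fold change as it was. The replicate block gave the same fold changes as leaving out preleukemic replicate 4. Dnmt3a passed the threshold after rescaling each sample to the same total (-0.56), after rescaling without red cell, macrophage and neutrophil genes (-0.52), and in 1 fit with a sample left out (range -0.54 to -0.25), and Tet1 in 1 such fit (range -1.27 to -0.52). The number of genes called over the whole table was 951 with the stricter filter, 38 against a 1.5-fold change, 2917 after rescaling (686 higher and 2231 lower) and 2434 after rescaling without those cell genes (689 and 1745), and 106 (without preleukemic replicate 4) to 1506 with a sample left out; it was 935, 457 and 273 without preleukemic replicates 1, 2 and 3. Quantile normalization gave 754 higher and 907 lower calls. The causes of these shifts were not tested.

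The counts over the lists under each alternative were added after seeing the data. No filter left 0 maintenance partners, 1 reader, 1 TET-related gene, 1 imprinted gene and 0 S phase genes called. The stricter filter left 0 maintenance partners, 0 readers and 1 TET-related gene, and a fit with no intensity trend 1 TET-related gene. Rescaling called 3 repair genes, 2 methyl donor genes and 1 imprinted gene, and rescaling without the cell genes 3 repair genes and 1 imprinted gene. The test against a 1.5-fold change called 0 genes in every list. With a sample left out, the counts ran from 0 to 0 for maintenance partners and germline genes, 0 to 1 for methyl donor and mitosis genes, 0 to 2 for histone genes and readers, 0 to 3 for repair, TET-related and imprinted genes, and 0 to 4 for S phase genes.

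The replicate numbers in the labels did not pair the samples: the deviations of same-numbered samples correlated at 0.0267, 0.0871 and -0.12 over 8777 genes, and 2 of 6 samples correlated best with their own number. The fit with the replicate block, which leaves out preleukemic replicate 4, called 0 genes, and 0 in every list, with 2429 genes at an unadjusted p under 0.05; its Dnmt3a fold change was -0.38 and its Dnmt1 fold change 0.63. Depth limited Tet1 in leukemic replicate 1 and Dnmt3b most, at about 87 and 278 fragments in their lowest samples. The germline genes were untested because their FPKM sums were below the filter of 10.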
